A study of Anopheles merus and Anopheles coluzzii with 36 samples.

Results

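The difference between the responses of Anopheles merus and Anopheles coluzzii larvae to 50% of the salinity of seawater was measured gene by gene. For each gene it was the change at 50% against 0% in An. merus minus the change at 50% against 0% in An. coluzzii, on the log2 scale. A positive difference means that the gene moved further up, or less far down, in An. merus. The measurement rested on 12 of the 36 libraries of the series, chosen by their species and salinity labels, namely 3 each of An. merus at 50%, An. merus at 0%, An. coluzzii at 50% and An. coluzzii at 0%. Larvae of all 4 groups spent their first 18 h after hatching in fresh water and the next 6 h at the salinity named, and each library came from polyadenylated RNA of 35 to 50 whole larvae pooled. The sources used here name no strain or colony. They also leave unsaid whether a group's pools were raised apart, and the p-values therefore measure no more than the variation among pools.

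Both species belong to the Anopheles gambiae complex of African malaria vectors. An. merus breeds in brackish coastal pools and its larvae tolerate a wide range of salinities, whereas An. coluzzii develops in fresh water. In fresh water a mosquito larva gains water and loses ions through its body surface, and it recovers ions in the rectum and anal papillae. In saline water it loses water, drinks the medium and must excrete ions, with the Malpighian tubules forming the urine and the rectum modifying it. Ion pumps and exchangers, water channels, cuticle proteins, chaperones and enzymes of energy metabolism are the gene groups usually looked at under this treatment. The identifiers of the deposited table matched 0 of the 16199 genes of the annotation table at hand, so no gene below is given a name or a role, and the gene groups are those formed by the pattern of response.

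The 12 libraries held 9174563 to 19548005 reads in An. merus, against 15369828 to 19435223 in An. coluzzii, counted over 10905 genes. Levels are given in CPM, read counts scaled by the authors to a common library size, and a floor of 3 reads equals 0.141 to 0.348 CPM in these libraries. The pools of a group differed by more than counting noise in all 12 pairs. The median SD of a gene between pools, on the log2 scale, was 0.139 for An. merus at 50% and 0.229 at 0%, and 0.16 for An. coluzzii at 50% and 0.171 at 0%. The 100 most abundant genes held 35.9 to 38.1% of the reads in An. merus at 50%, 33.6 to 37.5% in An. merus at 0%, 42.4 to 45.3% in An. coluzzii at 50% and 34.8 to 35.1% in An. coluzzii at 0%. The part of this shift in the results was not tested.

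The first question was how many genes answered the same salinity differently in the 2 species. The difference in response passed the test for 4710 of 10905 genes, or 43.2% of those tested, by limma at a Benjamini-Hochberg adjusted p under 0.05. An. merus had the higher response for 2217 of them and the lower for 2493. The difference was at least 2-fold for 2492 genes, at least 4-fold for 475 and at least 16-fold for 44. Among the differences of at least 4-fold, 353 were positive, that is, higher in An. merus, and 122 negative, and the higher ones outnumbered the lower ones under each of the 11 alternative settings (240 to 513 against 64 to 193). In pools of whole larvae, fewer cells of a type and less RNA per cell cannot be told apart.

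The majority among all called genes depended on the scaling and on the tool. With values scaled by library totals, 2554 genes had the higher response in An. merus and 1766 the lower, and the median over all genes shifted by 0.15 on the log2 scale. On recovered reads, edgeR also gave more higher than lower calls, 2482 and 1891, and so did DESeq2, 2410 and 2288.

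The number of genes with a called response was similar in the 2 species. An. merus at 50% differed from An. merus at 0% in 6788 genes (62.2% of those tested; 3090 higher, 3698 lower), and An. coluzzii at 50% differed from An. coluzzii at 0% in 6424 genes (58.9%; 2989 higher, 3435 lower), both by limma with Benjamini-Hochberg adjustment. Scaling by library totals turned these into 2300 higher and 4294 lower in An. merus, with a shift of the median of -0.13, and 1791 higher and 4931 lower in An. coluzzii, with a shift of -0.28. At least 4-fold, 132 genes rose and 138 fell in An. merus, and 114 rose and 267 fell in An. coluzzii, where falls outnumbered rises under each of the 11 alternatives. On the log2 scale the median size of the change over the 4710 genes was 0.706 in An. merus, against 0.586 in An. coluzzii. An. merus moved further in 2537 of them (53.9%) and An. coluzzii in 2173 (46.1%), against 51.5 and 48.5% of all genes.

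Genes that did not pass the test were not thereby shown to respond alike. Of the 6195 such genes, 3945 had a 95% interval of the difference that lay within 1 log2 unit of 0, that is, within a 2-fold difference in either direction. The median SE of the difference was 0.246 over all genes. The share of genes called grew with the level. In 5 classes of 2181 genes each by mean CPM, it was 31.2% in the lowest class (up to 5.2 CPM), then 38.9, 46.2 and 49.8%, and 49.8% in the highest class (above 71.2 CPM). The share both called and with a difference of at least 2-fold was 22.0 to 24.1% in these classes.

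**Figure D1:**
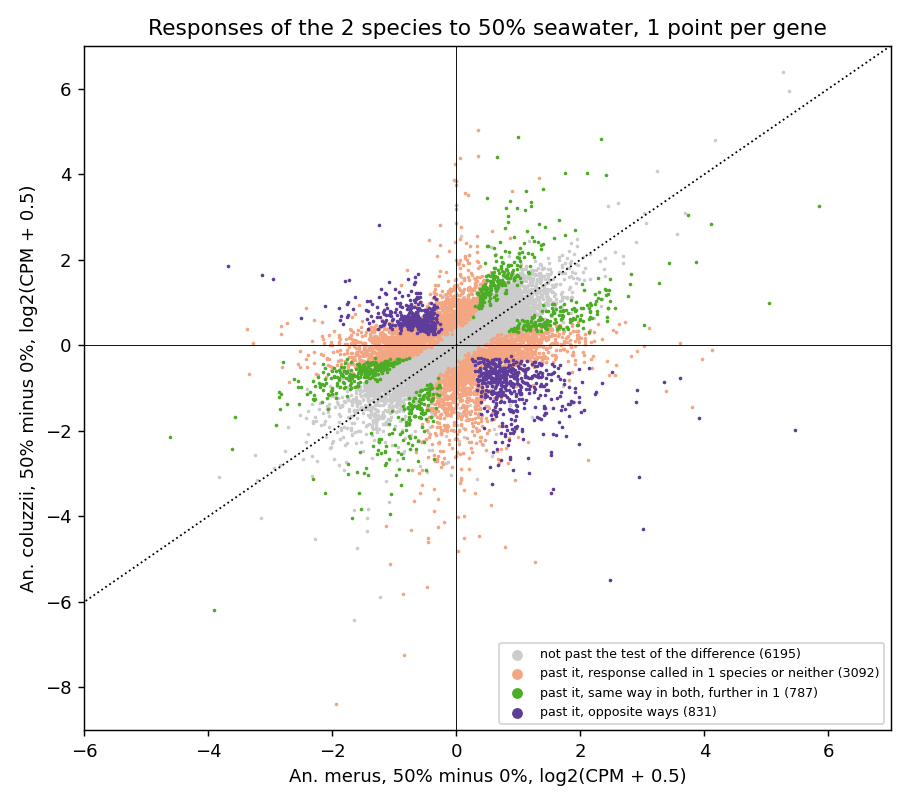
Each point is 1 of 10905 genes, with its log2 change at 50% against 0% in An. merus on the x axis and in An. coluzzii on the y axis; the dotted line marks equal responses. The 831 genes called in opposite ways (purple) fill 2 quadrants, the 787 called the same way in both and further in 1 (green) lie off the line in the other quadrants, and 3092 called genes (orange) spread along the axes.

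The 4710 genes fell into patterns by the calls of the 2 responses. Most of them, 3017 genes or 64.1%, had a called response in 1 species and none in the other. These comprised 659 that rose and 997 that fell in An. merus with no call in An. coluzzii, and 643 that rose and 718 that fell in An. coluzzii with no call in An. merus. The 2 responses had opposite directions, each past its own test, for 831 genes (17.6%), of which 483 rose in An. merus but fell in An. coluzzii and 348 fell in An. merus but rose in An. coluzzii. Both species moved the same way but to a different extent for 787 genes (16.7%). In 75 genes (1.59%) neither response passed its own test. With scaling by library totals, 556 genes rose in An. merus but fell in An. coluzzii and 167 had the mirror pattern, while 326 rose and 995 fell in An. coluzzii with no call in An. merus. With array quality weights the mirror pattern held 589 genes, and in the fit on all 36 libraries 525.

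Median changes show the size of each pattern, as a description, since the calls formed the patterns. The 483 genes that rose in An. merus but fell in An. coluzzii had median log2 changes of 0.81 in An. merus and -0.85 in An. coluzzii. The 348 of the mirror pattern had -0.67 in An. merus and 0.61 in An. coluzzii. Of the 659 genes risen in An. merus with no call in An. coluzzii the medians were 1.0 in An. merus and -0.06 in An. coluzzii, and of the 997 fallen ones -0.95 in An. merus and 0.03 in An. coluzzii. Of the 643 genes risen in An. coluzzii with no call in An. merus they were -0.01 in An. merus and 0.83 in An. coluzzii, and of the 718 fallen ones 0.05 in An. merus and -1.11 in An. coluzzii.

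Among genes with the same direction, 170 rose further in An. merus (medians 1.62 in An. merus and 0.62 in An. coluzzii) and 213 rose further in An. coluzzii (0.66 in An. merus and 1.53 in An. coluzzii). A further 251 fell further in An. merus (-1.51 in An. merus and -0.62 in An. coluzzii) and 153 fell further in An. coluzzii (-0.68 in An. merus and -1.65 in An. coluzzii). These 4 counts moved with the settings. They were 84 and 90 risen and 318 and 323 fallen, further in An. merus and further in An. coluzzii in each pair, with scaling by library totals. Array quality weights gave 294 and 449 risen and 464 and 283 fallen, and the fit on all 36 libraries 310 and 360 risen and 507 and 285 fallen, in the same order. With the replicate letter as a block 162 fell further in An. merus. In the fit reported, the called genes were a minority of the shared response. In all, 1537 genes rose in both species, of which 383 had a called difference and 761 had none with an interval within 1 log2 unit. Likewise 1787 genes fell in both, of which 404 had a called difference and 1091 had none with an interval within 1 log2 unit.

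Opposite responses with a rise in An. merus were led by AGAP009635 and AGAP000239. AGAP009635 had 834, 769 and 720 CPM in An. merus at 50% and 165, 85.0 and 191 CPM in An. merus at 0%. The An. coluzzii pools had 7.37, 7.23 and 6.29 CPM at 50% and 112, 435 and 776 CPM at 0%. The groups did not overlap within either species, and the An. coluzzii pools at 0% were the furthest apart. On the log2 scale the difference in response was 7.97 ± 0.74 (SE, limma adjusted p = 1.3e-05).

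AGAP000239 had 143, 178 and 112 CPM in An. merus at 50% and 5.45, 1.93 and 1.88 CPM in An. merus at 0%, so that all 3 pools at 50% stood far above those at 0%. The An. coluzzii pools had 1.63, 1.205 and 1.45 CPM at 50% and 1.63, 8.29 and 23.0 CPM at 0%. There the highest pool at 50% (1.630 CPM, 25 reads) and the lowest at 0% (1.631 CPM, 33 reads) nearly coincided, so the fall in An. coluzzii rested on the other two pools at 0%. The difference was 7.44 ± 0.91 (SE, limma adjusted p = 8.4e-05), of which 5.45 was the rise in An. merus.

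The mirror pattern was led by AGAP004980 and AGAP012941. AGAP004980 had 0.648, 3.99 and 1.42 CPM in An. merus at 50% and 34.1, 15.9 and 36.9 CPM in An. merus at 0%, against 54.5, 50.4 and 54.2 CPM in An. coluzzii at 50% and 19.7, 12.5 and 11.8 CPM in An. coluzzii at 0%. AGAP012941 had 0.118, 0.541 and 0.0791 CPM in An. merus at 50% and 7.43, 3.93 and 6.65 CPM in An. merus at 0%, against 7.17, 6.72 and 6.65 CPM in An. coluzzii at 50% and 2.32, 1.51 and 1.74 CPM in An. coluzzii at 0%. Within each species the pools at 50 and 0% did not overlap for either gene. The differences were -5.54 ± 0.60 for AGAP004980 (SE, limma adjusted p = 3.6e-05) and -4.79 ± 0.37 for AGAP012941 (SE, limma adjusted p = 4.7e-06), and AGAP012941 had only 1 to 8 reads in the An. merus pools at 50%.

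**Figure D2:**
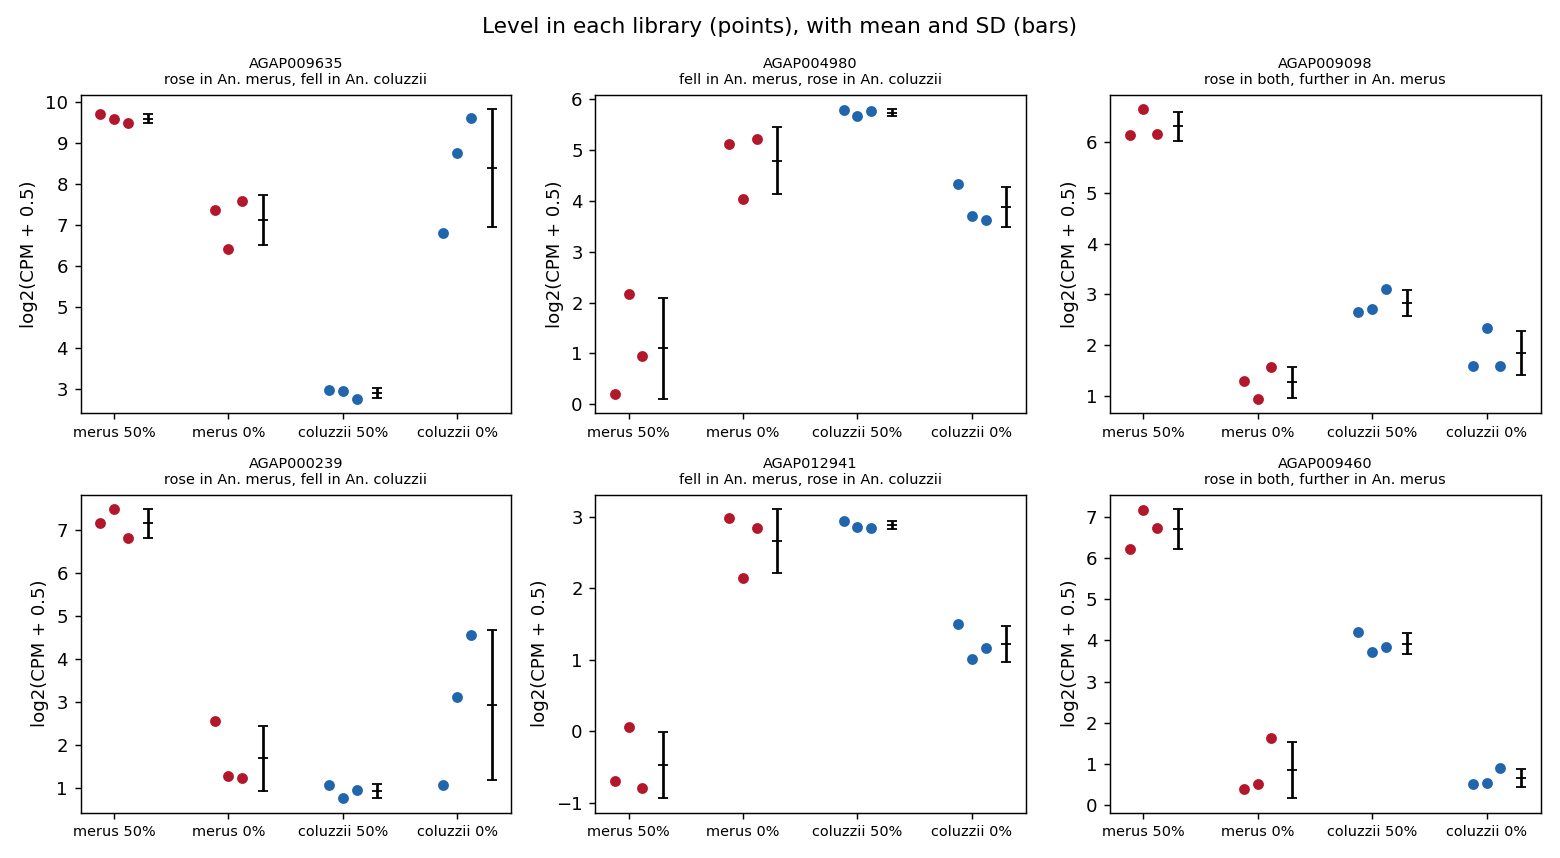
Levels of 6 genes on the log2(CPM + 0.5) scale in each library (points), with the mean and SD of the 3 libraries of a group (bars) for An. merus at 50 and 0% and An. coluzzii at 50 and 0%. For AGAP009635 and AGAP000239 the An. merus pools rise at 50% and the An. coluzzii pools lie lowest at 50%, for AGAP004980 and AGAP012941 the order is turned round, and for AGAP009098 and AGAP009460 both species are higher at 50%, An. merus by more.

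Genes that rose in both species but further in An. merus were led by AGAP009098 and AGAP009460. AGAP009098 had 69.7, 99.4 and 70.4 CPM in An. merus at 50% and 1.97, 1.43 and 2.46 CPM in An. merus at 0%. Its An. coluzzii pools had 5.80, 6.02 and 8.17 CPM at 50% and 2.52, 4.57 and 2.51 CPM at 0%. The level at 0% was of the same order in both species, and the difference in response was 4.05 ± 0.34 (SE, limma adjusted p = 7.9e-06). AGAP009460 had 73.6, 143 and 105 CPM in An. merus at 50% and 0.812, 0.935 and 2.60 CPM in An. merus at 0%, against 17.8, 12.6 and 13.9 CPM in An. coluzzii at 50% and 0.939, 0.942 and 1.38 CPM in An. coluzzii at 0%, with a difference of 2.59 ± 0.44 (SE, limma adjusted p = 0.00073).

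In the opposite case the rise was further in An. coluzzii. AGAP010913 had 0.825, 1.08 and 0.554 CPM in An. merus at 50% and 0, 0.312 and 0.193 CPM in An. merus at 0%, which are 0 to 16 reads. The An. coluzzii pools had 32.9, 35.9 and 23.9 CPM at 50% and 0.989, 0.424 and 0.358 CPM at 0%. At 50% the An. coluzzii pools stood far above all others. AGAP010914 averaged 0.870 ± 0.280 CPM in An. merus at 50% and 0.368 ± 0.198 CPM in An. merus at 0%, against 14.9 ± 3.51 CPM in An. coluzzii at 50% and 0.229 ± 0.151 CPM in An. coluzzii at 0% (SD, n = 3). AGAP010912, with no call in An. merus, averaged 0.386 ± 0.275 CPM in An. merus at 50% and 0.172 ± 0.0691 CPM in An. merus at 0%, against 22.1 ± 4.25 CPM in An. coluzzii at 50% and 0.180 ± 0.0290 CPM in An. coluzzii at 0% (SD, n = 3). All 3 genes were thus low in 3 groups and well above that level in An. coluzzii at 50%. Their differences in response were -3.88 ± 0.37, -3.73 ± 0.35 and -4.68 ± 0.34 for AGAP010913, AGAP010914 and AGAP010912 (SE, limma adjusted p = 1.7e-05, 1.3e-05 and 3.6e-06). Their identifiers are consecutive, and whether similar copies share reads was not tested, so they are uncertain as separate measurements.

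Genes that fell in both species differed in where they ended or in where they began. AGAP001924 had 0.943, 0.676 and 1.19 CPM in An. merus at 50% and 17.1, 11.7 and 21.5 CPM in An. merus at 0%. The An. coluzzii pools had 0.978, 0.761 and 1.16 CPM at 50% and 3.36, 5.27 and 3.94 CPM at 0%. The pools of the 2 species overlapped at 50%, where An. merus minus An. coluzzii was -0.04 ± 0.23 on the log2 scale (SE), and lay apart at 0%, where it was 1.86 ± 0.23 (SE). AGAP009591 had the same arrangement, with 11.2 ± 7.56 CPM in An. merus at 50%, 254 ± 38.4 CPM in An. merus at 0%, 13.0 ± 3.67 CPM in An. coluzzii at 50% and 64.4 ± 34.0 CPM in An. coluzzii at 0% (SD, n = 3). The differences in response were -1.89 ± 0.33 for AGAP001924 and -2.46 ± 0.61 for AGAP009591 (SE, limma adjusted p = 0.00086 and 0.0065).

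AGAP007413 and AGAP008487 fell further in An. coluzzii. AGAP007413 had 46.4, 33.0 and 42.3 CPM in An. merus at 50% and 58.6, 48.3 and 63.8 CPM in An. merus at 0%, against 3.26, 3.23 and 3.90 CPM in An. coluzzii at 50% and 27.8, 32.2 and 28.7 CPM in An. coluzzii at 0%. AGAP008487 averaged 113 ± 8.66 CPM in An. merus at 50% and 243 ± 61.7 CPM in An. merus at 0%, against 12.9 ± 4.53 CPM in An. coluzzii at 50% and 222 ± 113 CPM in An. coluzzii at 0% (SD, n = 3). For both genes the pools at 50% lay below those at 0% without overlap in each species, and the gap was wider in An. coluzzii. The differences were 2.44 ± 0.22 for AGAP007413 and 2.88 ± 0.52 for AGAP008487 (SE, limma adjusted p = 1e-05 and 0.001).

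Genes named for a response called in 1 species alone were low or scattered in several pools. AGAP006954 had 9.90, 17.6 and 12.5 CPM in An. merus at 50% and 0.348, 0.187 and 1.06 CPM in An. merus at 0%. Its An. coluzzii pools had 0.652, 0.571 and 0.506 CPM at 50% and 0.593, 1.08 and 14.02 CPM at 0%, so 1 pool at 0%, replicate D, stood far above the others. Its difference of 5.24 ± 1.01 (SE, limma adjusted p = 0.0015) was 4.09 to 5.95 with single libraries left out. AGAP006986 had 22.0, 84.9 and 8.62 CPM in An. merus at 50% and 1.62, 2.18 and 2.22 CPM in An. merus at 0%, against 12.3, 2.47 and 3.47 CPM in An. coluzzii at 50% and 4.80, 25.3 and 9.72 CPM in An. coluzzii at 0%, and differed by 4.45 ± 1.07 (SE, limma adjusted p = 0.0056).

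AGAP008448 fell in An. merus, with 5.24, 3.25 and 12.02 CPM at 50% and 72.5, 78.2 and 51.5 CPM at 0%. The An. coluzzii pools had 18.1, 37.9 and 18.1 CPM at 50% and 63.5, 31.9 and 2.35 CPM at 0%, where the pools of the 2 groups overlapped. Its difference of -3.76 ± 1.22 (SE, limma adjusted p = 0.025) lost its call without An. merus 50% replicate A (adjusted p = 0.052), without An. merus 50% replicate B (0.063) and without An. coluzzii 50% replicate B (0.058), and also with edgeR (0.061), DESeq2 (0.058) and robust limma variances (0.057).

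Reads of AGAP007150 and AGAP007229 were nearly absent in 1 species. AGAP007150 had 0.766, 1.56 and 1.34 CPM in An. merus at 50% and 20.5, 16.02 and 12.05 CPM in An. merus at 0%, whereas the An. coluzzii pools held 1 read in all at 50% and 0 at 0%. AGAP007229 had 1 read in all in An. merus at 50% and 0 at 0%, against 80.6, 42.6 and 48.8 CPM in An. coluzzii at 50% and 1.24, 1.32 and 5.68 CPM in An. coluzzii at 0%. No fold can be given for the species at the floor. The fitted differences of -3.33 and -4.32 carry the response of the species with reads alone and depend on the constant added. With edgeR AGAP007150 was not called (adjusted p = 0.062), nor was AGAP007229 (0.92), which DESeq2 did not call either (0.16). Of all 4710 genes, 128 were under 1 CPM at both salinities in An. merus alone and 72 in An. coluzzii alone. A separate 17 were so in both species.

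AGAP004130 and AGAP004131, with consecutive identifiers, fell in An. coluzzii with widely scattered pools. AGAP004130 had 37.7, 7.37 and 0.158 CPM in An. merus at 50% and 32.8, 2.31 and 118 CPM in An. merus at 0%, against 0.782, 0 and 0.289 CPM in An. coluzzii at 50% and 95.2, 154 and 1300.3 CPM in An. coluzzii at 0%. AGAP004131 had 53.3, 27.6 and 4.90 CPM in An. merus at 50% and 29.1, 8.54 and 175 CPM in An. merus at 0%. The An. coluzzii pools had 5.80, 0.698 and 2.39 CPM at 50% and 128, 244 and 2359 CPM at 0%. For both genes the An. merus pools at 50 and 0% overlapped and the An. coluzzii pools did not. The AGAP004131 difference of 6.39 ± 1.73 (SE, limma adjusted p = 0.011) passed under every alternative and with every library left out. AGAP004130, at 6.46 ± 2.11 (SE, limma adjusted p = 0.027), lost the call under the replicate block (adjusted p = 0.071), with robust variances (0.07) and in 5 of the 12 fits that left out a library (0.055 to 0.068). Those libraries were An. merus 50% replicates A and B, An. merus 0% replicate B, An. coluzzii 50% replicate B and An. coluzzii 0% replicate D. At 40% against 10% the difference had the opposite sign, -2.93 ± 0.96 for AGAP004131 and -3.33 ± 1.01 for AGAP004130 (SE, limma adjusted p = 0.025 and 0.017). An. merus at 40% averaged 3.64 ± 1.19 CPM for AGAP004131 and 0.403 ± 0.139 CPM for AGAP004130 (SD, n = 3). Whether the reads of such neighbours are shared was not tested.

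Genes with large and close responses were named for comparison. AGAP013185 had 4.01, 5.55 and 3.88 CPM in An. merus at 50% and 48.0, 26.4 and 33.6 CPM in An. merus at 0%, against 20.5, 11.2 and 19.0 CPM in An. coluzzii at 50% and 109, 121 and 117 CPM in An. coluzzii at 0%. On the log2 scale it fell by 2.85 in An. merus and by 2.79 in An. coluzzii, and the 95% interval of the difference ran from -0.81 to 0.69. AGAP006525 had 5.89, 8.996 and 7.67 CPM in An. merus at 50% and 0.464, 0.436 and 0.530 CPM in An. merus at 0%, against 8.15, 11.9 and 7.37 CPM in An. coluzzii at 50% and 0.791, 0.565 and 0.512 CPM in An. coluzzii at 0%. It rose by 3.02 in An. merus and by 3.08 in An. coluzzii, with an interval of the difference from -0.69 to 0.56. For both genes the pools at 50 and 0% were well apart within each species. They were chosen for their close responses, so this is a description.

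The next question was whether the difference in response brought the species' levels closer together or further apart. At 50% An. merus differed from An. coluzzii in 6528 genes (59.9% of those tested), and at 0% in 3334 (30.6%), by limma with Benjamini-Hochberg adjustment. Among the 4710 genes the species stood further apart at 50% than at 0% in 3719 (79.0%) and closer in 991 (21.0%), and 66.8% of all genes stood further apart at 50%. The species differed at 50% and not at 0%, by these calls, for 2940 of the 4710 (62.4%), and at 0% and not at 50% for 585. A called difference at both salinities changed side for 426 genes. Of these, 207 were higher in An. merus at 50% and lower in An. merus at 0%, and 219 the other way round. A proportional bias in a gene's reads in 1 species, the same at both salinities, nearly cancels from the difference in response at high levels. It does not cancel at low levels, where the added 0.5 CPM weighs in, nor from these comparisons of levels.

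The gap between the species was also followed over the whole range of salinities. The median absolute difference between the species' mean levels, on the log2 scale, was 0.326 at 0%, 0.272 at 10%, 0.309 at 20%, 0.426 at 30%, 0.543 at 40% and 0.572 at 50%. The species' means were at least 2-fold apart for 1167, 987, 1214, 1816, 2532 and 2839 genes at these salinities. In libraries that the contrast at 50% did not use, the species stood further apart at 40 than at 10% for 70.1% of the 4710 genes and for 71.5% of all genes, so there the called genes did not stand out.

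The course of each pattern from 0 to 50% placed the point at which the species parted. The changes from 0% share the 0% libraries with the contrast that formed the patterns, so they are given as a description. Genes that rose in An. merus but fell in An. coluzzii at 50% had median log2 changes in An. merus of 0.158, 0.242, 0.281, 0.454 and 0.812 at 10, 20, 30, 40 and 50%. The same genes had 0.078, 0.264, 0.481, -0.066 and -0.85 in An. coluzzii. They were thus above their level at 0% in both species up to 30%, and the opposite direction appeared above it. Genes risen in An. merus with no call in An. coluzzii at 50% had medians of 0.526 at 30% and 0.418 at 40% in An. coluzzii and -0.056 at 50%. Genes that rose in both and further in An. merus had 0.417 at 30% and 0.711 at 40% in An. merus, below the 1.03 and 1.23 of An. coluzzii at these salinities.

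**Figure D3:**
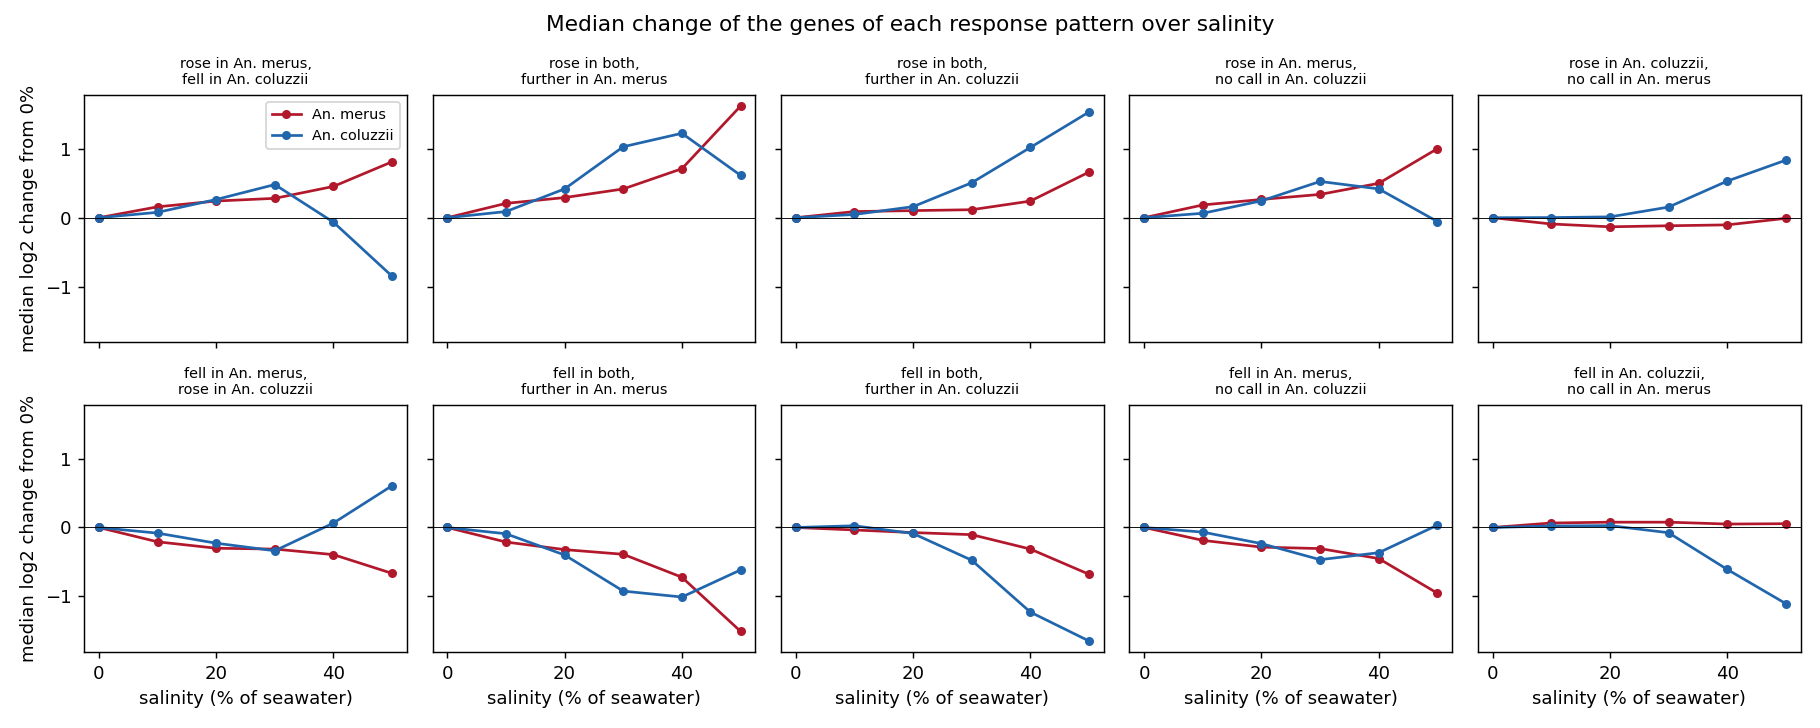
Median log2 change from 0% (y axis) of the genes of 10 response patterns at each salinity from 0 to 50% of seawater (x axis), in An. merus (red) and An. coluzzii (blue). In 6 patterns, those with opposite directions, those further in An. merus and those called in An. merus alone, the An. coluzzii line leaves 0 in the same direction as An. merus up to 30% and turns back by 50%, and in the other 4 it lies furthest from 0 at 50%.

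Libraries at 10, 30 and 40% entered none of the calls at 50%, so the same genes were followed in them. An. coluzzii at 30% against 10% had 2427 genes higher and 2806 lower (22.3 and 25.7% of those tested), and An. merus at 30% against 10% had 58 higher and 142 lower (0.532 and 1.3%), by limma with Benjamini-Hochberg adjustment. Of the 659 genes that rose in An. merus at 50% with no call in An. coluzzii, 461 (70.0%) were higher in An. coluzzii at 30% than at 10%, and 2 were lower. Of the 997 that fell in An. merus alone by these calls, 630 (63.2%) were lower in An. coluzzii at 30% than at 10%, and 14 were higher. Most of these genes, with no called response in An. coluzzii at 50%, thus had a called change in that species at a lower salinity, in the direction that An. merus took at 50%.

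The share was higher still among genes that moved the same way and further in An. merus. Of those that rose, 164 of 170 (96.5%) were higher in An. coluzzii at 30% than at 10%, and of those that fell, 228 of 251 (90.8%) were lower. Of genes that moved further in An. coluzzii, 126 of 213 risen ones (59.2%) were higher and 102 of 153 fallen ones (66.7%) lower. For genes called in An. coluzzii alone it was 183 of 643 risen ones (28.5%) and 153 of 718 fallen ones (21.3%). Among all genes 22.3% were higher and 25.7% lower. Among the opposite responses, 280 of the 483 that fell in An. coluzzii at 50% (58.0%) were higher in An. coluzzii at 30% than at 10%, and 158 of the 348 that rose there at 50% (45.4%) were lower. For this last pattern the share was close to that of all genes with scaling by library totals, at 37.1% of its 167 genes against 34.1% of all genes. By the same scaling, 64.1% of the genes risen in An. merus alone were higher against 13.3% of all genes, and 68.1% of those fallen in An. merus alone were lower against 34.1% of all genes. The lowest shares over the settings and single libraries left out were 53.0% for the risen genes, against 19.9% of all genes in the same fit on 36 libraries, and 52.6% for the fallen ones, against 20.7% of all genes without An. coluzzii 10% replicate B. In An. merus the same 30% against 10% comparison called at most 8.24% of any of the 10 patterns in either direction. Among all genes it called 0.532% higher and 1.3% lower. The 8.24% were 14 of the 170 genes risen further in An. merus, all higher, and 20 of the 251 fallen further (7.97%) were lower.

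The difference in response was also measured at 40% against 10%, in 12 libraries none of which entered the contrast at 50%. There, 2478 genes had the higher response in An. merus and 2368 the lower (22.7 and 21.7% of those tested), by limma with Benjamini-Hochberg adjustment, and scaling by library totals gave 4125 and 1233 with a shift of the median of 0.28. Of the 2217 genes with the higher response in An. merus at 50%, 847 were called in the same direction, which is 38.2% of that list and 34.2% of the 2478, and 245 (11.1%) in the other. Of the 2493 with the lower response, 918 were called in the same direction, 36.8% of that list and 38.8% of the 2368, and 322 (12.9%) in the other. With scaling by library totals the list with the higher response had 56.4% called in the same direction and 6.73% in the other, against 37.8 and 11.3% of all genes. The list with the lower response then had 24.6% in the same direction and 20.7% in the other, against 11.3 and 37.8% of all genes.

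The direction depended on the pattern. Of the 483 genes risen in An. merus but fallen in An. coluzzii at 50%, 229 (47.4%) kept their direction and 18 (3.73%) took the other. Of the 348 of the mirror pattern, 138 (39.7%) kept theirs and 16 (4.6%) took the other. Among all genes 22.7% were called higher in An. merus and 21.7% lower. Genes risen in both and further in An. coluzzii at 50% kept their direction for 174 of 213 (81.7%), those fallen in both and further in An. coluzzii for 124 of 153 (81.0%), those risen in An. coluzzii alone for 415 of 643 (64.5%) and those fallen in An. coluzzii alone for 405 of 718 (56.4%). Genes further in An. merus at 50% took the other direction in the 40% against 10% libraries. Of the 170 risen ones 100 (58.8%) had the higher response in An. coluzzii there and 4 in An. merus. Of the 251 fallen ones 119 (47.4%) had the lower response in An. coluzzii there and 17 in An. merus. Under 4 other settings the other direction was taken by 44.2 to 60.1% of the genes risen and 44.0 to 50.9% of those fallen further in An. merus, and their own by at most 9.52%. With scaling by library totals the fallen genes' share was 49.7%, against 37.8% of all genes in that direction. Genes called in An. merus alone were split, with 182 higher and 165 lower among the 997 fallen ones and 75 higher and 103 lower among the 659 risen ones. By library totals 22.0% of the risen ones were higher and 15.6% lower, against 37.8 and 11.3% of all genes, and after quantile normalization 18.2 and 13.2%, against 23.3 and 19.4% of all genes.

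**Figure D4:**
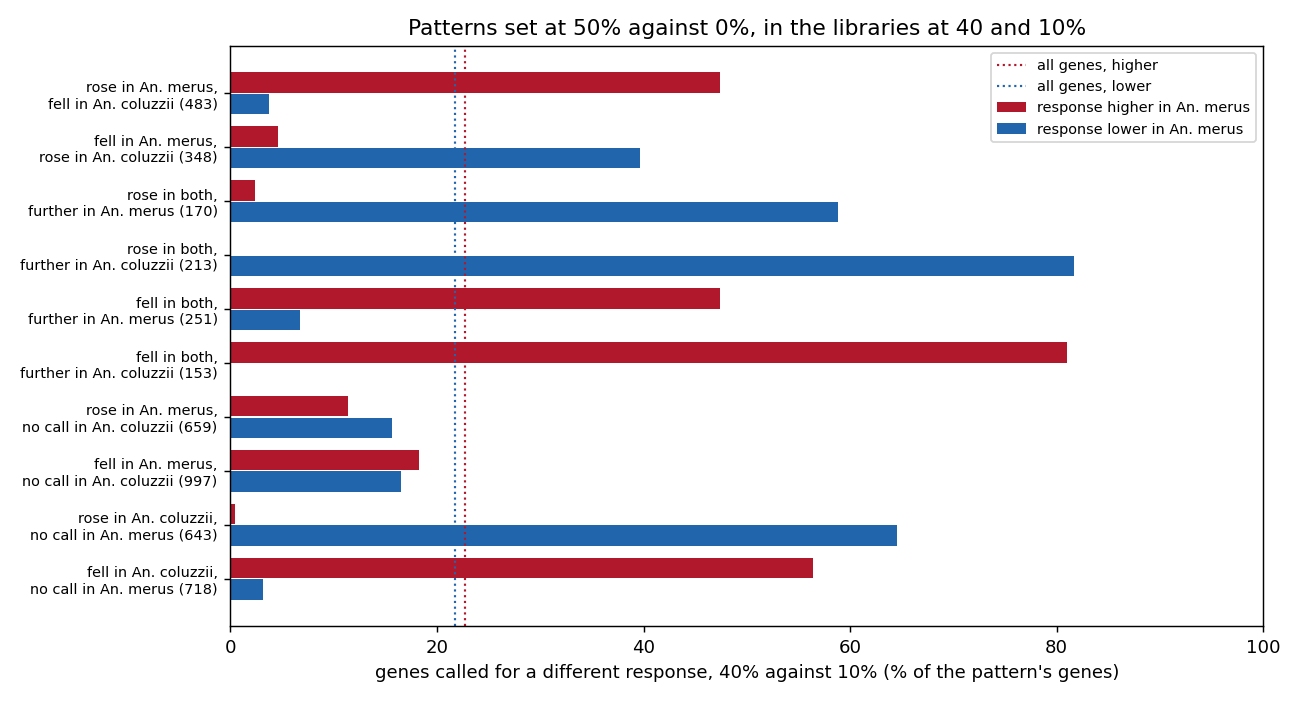
Share of the genes of each response pattern at 50% against 0% (rows, gene number in brackets) that were called for a higher (red) or lower (blue) response in An. merus at 40% against 10%, in libraries not used at 50%; dotted lines mark all genes, 22.7% higher and 21.7% lower. Patterns further in An. coluzzii or called in An. coluzzii alone keep their direction for 56.4 to 81.7% of their genes, and the 2 patterns further in An. merus show the other direction for 47.4 and 58.8%.

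The named genes showed these courses in their levels. AGAP006525, whose responses at 50% were close, averaged 0.510 ± 0.193, 0.380 ± 0.135, 0.756 ± 0.360 and 1.31 ± 0.120 CPM in An. merus at 10, 20, 30 and 40%, before the 7.52 ± 1.56 CPM at 50%. In An. coluzzii it averaged 0.772 ± 0.133, 1.54 ± 0.254, 8.44 ± 1.62 and 28.4 ± 2.09 CPM at 10, 20, 30 and 40%, and 9.15 ± 2.43 CPM at 50% (SD, n = 3). Its level thus peaked at 40% in An. coluzzii, and the close responses at 50% joined a rising course in An. merus and a falling one in An. coluzzii. At 40% against 0% its difference in response was -3.80 ± 0.20 (SE, limma adjusted p = 1.2e-06), and at 40% against 10% it was -3.65 ± 0.22 (SE, limma adjusted p = 1.8e-07).

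AGAP009460 averaged 1.56 ± 0.431, 1.58 ± 0.692, 2.46 ± 1.33 and 4.19 ± 0.575 CPM in An. merus at 10, 20, 30 and 40%, and 107 ± 34.9 CPM at 50% (SD, n = 3). In An. coluzzii it peaked at 40% as well, with 0.954 ± 0.161, 1.80 ± 0.548, 14.5 ± 2.07 and 40.6 ± 13.6 CPM at 10, 20, 30 and 40%, and 14.7 ± 2.73 CPM at 50%. Between 40 and 50% it thus went up in An. merus and down in An. coluzzii, a difference of 5.88 ± 0.34 (SE, limma adjusted p = 4.9e-08). At 40% against 10% it had the opposite sign, -3.58 ± 0.31 (SE, limma adjusted p = 2.8e-06). AGAP006954 behaved likewise, with 13.3 ± 3.91 CPM at 50% against 1.21 ± 0.228 CPM at 40% in An. merus, and 0.576 ± 0.0731 CPM at 50% against 6.31 ± 1.0 CPM at 40% in An. coluzzii (SD, n = 3).

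AGAP004980 and AGAP009635 turned in An. coluzzii between 30 and 40%. AGAP004980 averaged 27.9 ± 13.2, 22.4 ± 4.20, 15.97 ± 3.74 and 7.86 ± 2.58 CPM in An. merus at 10, 20, 30 and 40%, and 12.5 ± 2.26, 5.43 ± 0.347, 0.747 ± 0.265 and 39.2 ± 10.0 CPM in An. coluzzii (SD, n = 3). AGAP009635 averaged 230.1 ± 81.9, 363 ± 178, 576 ± 203 and 825 ± 314 CPM in An. merus at 10, 20, 30 and 40%, and 534 ± 140, 888 ± 130, 1163 ± 219 and 144 ± 101 CPM in An. coluzzii (SD, n = 3). Up to 30% the group means of either gene moved in the same direction in both species. AGAP012941 had the same turn at a lower level, with 4.11 ± 1.76 CPM in An. coluzzii at 40% against 0.0296 ± 0.0257 CPM in An. coluzzii at 30% (SD, n = 3).

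The species were also followed at the steps between for 3 further genes. AGAP010913 had means between 0.224 and 0.666 CPM in An. merus at 10 to 40%, against 0.375 ± 0.118, 0.463 ± 0.131, 1.12 ± 0.153 and 21.4 ± 1.59 CPM in An. coluzzii at 10, 20, 30 and 40% (SD, n = 3). AGAP007413 had means between 55.1 and 57.1 CPM in An. merus at 10 to 40%, against 33.3 ± 1.78, 31.1 ± 2.26, 21.2 ± 2.14 and 5.94 ± 0.715 CPM in An. coluzzii at 10, 20, 30 and 40% (SD, n = 3). AGAP001924 had 11.6 ± 0.89 CPM in An. merus at 30%, 4.50 ± 0.544 at 40% and 0.935 ± 0.255 at 50%, against 0.309 ± 0.119, 0.538 ± 0.0698 and 0.965 ± 0.198 CPM in An. coluzzii at 30, 40 and 50% (SD, n = 3). Its lowest mean in An. coluzzii was thus at 30%, and that in An. merus at 50%.

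**Figure D5:**
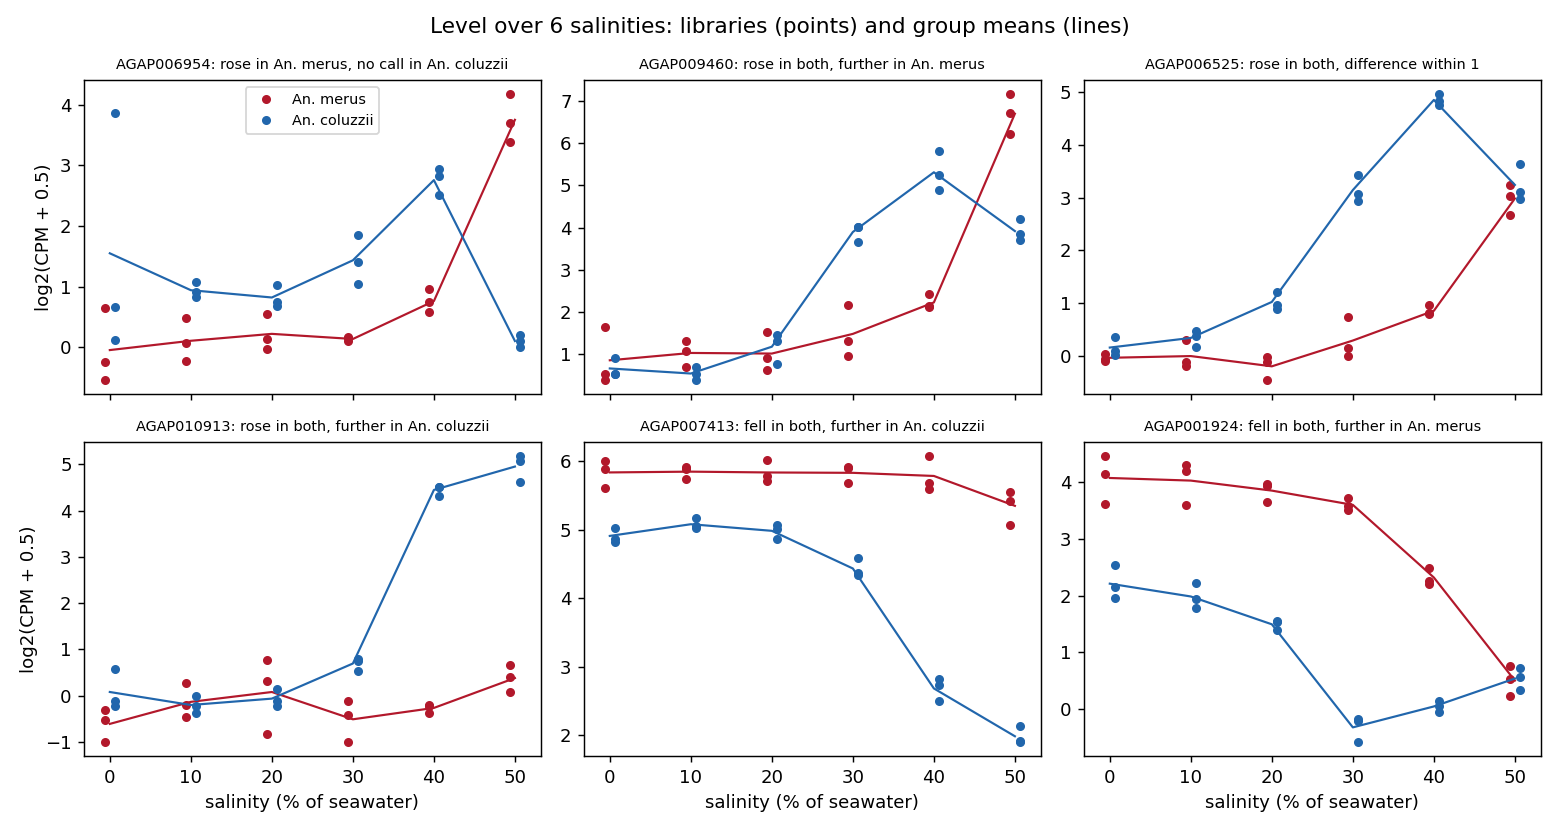
Levels of 6 genes on the log2(CPM + 0.5) scale (y axis) at 6 salinities (x axis, % of seawater) in An. merus (red) and An. coluzzii (blue), with 1 point per library and lines through the group means. AGAP006954, AGAP009460 and AGAP006525 peak at 40% in An. coluzzii and at 50% in An. merus, apart from the 1 high An. coluzzii pool of AGAP006954 at 0%. In both species AGAP010913 is highest and AGAP007413 lowest at 50%. AGAP001924 is lowest at 30% in An. coluzzii and at 50% in An. merus.

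Set beside 50%, the difference in response passed the test for 940 genes at 30% against 0% (8.62% of those tested; 449 higher and 491 lower in An. merus) and for 3463 at 40% against 0% (31.8%; 1778 higher and 1685 lower), by limma with Benjamini-Hochberg adjustment. These comparisons share the 0% libraries with that at 50%. The count at 30% rested on single libraries, and was 487 without An. coluzzii 30% replicate A, 499 without An. merus 30% replicate B, 501 without An. merus 30% replicate C and 591 without An. coluzzii 30% replicate C. With scaling by library totals the split was 833 higher and 294 lower at 30%, with a shift of the median of 0.19, and 3334 higher and 866 lower at 40%, with a shift of 0.31.

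The step between 40 and 50% used none of the 0% libraries. At 50% against 40% the 2 species changed differently for 5380 genes, 49.3% of those tested, by limma with Benjamini-Hochberg adjustment. An. merus had the higher change for 2638 and the lower for 2742, against 2121 and 3380 with scaling by library totals, where the median moved by -0.16. In An. merus AGAP009098 averaged 79.8 ± 17.0 CPM at 50% against 13.5 ± 6.54 CPM at 40%, whereas the An. coluzzii means were 6.67 ± 1.31 CPM at 50% against 20.1 ± 6.58 CPM at 40% (SD, n = 3). It was up in An. merus and down in An. coluzzii, by a difference of 4.10 ± 0.40 (SE, limma adjusted p = 2.9e-06), while at 40% against 10% its difference was 0.01 ± 0.41 (SE, limma adjusted p = 0.99).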

How the data were processed

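RNA of pooled whole larvae was sequenced after poly(A) selection with a TruSeq kit that does not mark strand, per the labels' protocols, so overlapping genes on opposite strands cannot be told apart. Per the submitters' processing notes, the tools included TopHat2 with Bowtie2, Trimmomatic, HTSeq and edgeR. The sources used here give no versions, genome build, annotation or filter threshold. The authors deposited 1 normalized expression signal per gene and library, named CPM with TMM scaling, which assumes that most genes do not change. All values were whole multiples of 1 read within 0.001 (100% of them), and these multiples were taken as reads. The column of An. coluzzii 50% replicate C is named for 1 of 5 sequencing parts, and whether it holds 1 or all is not stated.

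Values were tested as log2(CPM + 0.5), without a filter on low values, in limma 3.58.1 (R 4.3.3). One model of the 4 group means was fitted to the 12 libraries (8 residual degrees of freedom), with empirical Bayes moderation and a mean trend, two-sided, and Benjamini-Hochberg adjustment over 10905 genes at 0.05. Libraries of the other salinities were kept out because pools at 0% vary more than the others. Each further comparison was fitted on its own 12 libraries. Fold changes on this scale understate changes of low genes. On recovered reads, edgeR 4.0.16 called 4373 genes and DESeq2 1.42.0 called 4698 for the difference at 50%. Counting intervals and floors of 3 reads cover counting error only.

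Named genes were, in each of 10 patterns, the 2 with the largest difference among those with at least 5 CPM in 1 group and no overlap between 50 and 0% in each species whose response defines the pattern, plus 1 risen and 1 fallen gene with the largest mean change and a 95% interval within 1 log2 unit. Patterns, rules and lists were chosen with earlier results of these data known. The comparisons of 30 and 40% with 10% were added after the data were seen. Lists of named genes were not tested, since the identifiers matched no names. Alternatives were pseudocounts of 0.1 and 2, a filter at a mean of 5 CPM, library totals, quantile normalization, all 36 libraries, robust variances, the replicate letter as a block, array quality weights, edgeR, DESeq2 and each library left out. Plots used Python 3.11.15 and matplotlib 3.10.9.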

Additional observations from a re-analysis of the deposited data

Results flagged for a closer look

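The 2 species' responses to the same salinity differed by the test of the difference itself for 4710 genes and, among them, for the following named genes. Values are the difference in response at 50% on the log2 scale, An. merus minus An. coluzzii. Opposite directions gave 7.97 for AGAP009635, 7.44 for AGAP000239, -5.54 for AGAP004980 and -4.79 for AGAP012941. A rise in both species of different extent gave 4.05 for AGAP009098, 2.59 for AGAP009460, -3.88 for AGAP010913 and -3.73 for AGAP010914. A fall in both gave -2.46 for AGAP009591, -1.89 for AGAP001924, 2.88 for AGAP008487 and 2.44 for AGAP007413. A response called in An. merus alone gave 5.24 for AGAP006954, 4.45 for AGAP006986, -3.76 for AGAP008448 and -3.33 for AGAP007150. A response called in An. coluzzii alone gave -4.68 for AGAP010912, -4.32 for AGAP007229, 6.46 for AGAP004130 and 6.39 for AGAP004131. The calls of AGAP008448, AGAP007150, AGAP007229 and AGAP004130 did not hold under all settings, as given above. For AGAP007150 and AGAP007229, with 1 species at the floor, the value depends on the constant added.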

How the results depend on the processing

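The count of genes with a different response at 50% was 4040 to 6031 under 11 alternatives and 3938 to 4764 with single libraries left out, against 4710. Counts for the responses, the species at 50 and 0%, the wider and narrower gaps and the changes at 40% and between 40 and 50% stayed within 1.5 times the value reported under the alternatives run. The number moving the same way in both species but further in 1 was 1462 with all 36 libraries and 1490 with array quality weights, against 787, and the number moving in opposite ways was 1274 with array quality weights, against 831. At 30% the count was 2064 with all 36 libraries and 487 to 1262 with single libraries left out, against 940. The causes were not tested.

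The replicate letters were checked for pairing. Deviations from the group means of libraries with the same letter correlated by -0.24 to 0.46, over 0.1 in 4 of 15 pairs, so the letters were not taken as pairs. With the letter as a replicate block the count at 50% was 4040. An. coluzzii 0% replicate D has a letter of its own among the 4 groups and carried no weight there. The alternatives for lists of named genes were not run because the identifiers matched no names. With genes split by mean level into 5 classes, 31.2% of the lowest were called, with a median SE of 0.315, and 49.8% of the highest, with 0.212. The part of depth in this was not tested.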
